A study of Homo sapiens with 12 samples.

Results

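The genes described here encode the receptors that mark mitochondria for autophagy and the PINK1 pathway that works beside them. They were the rows of the count table with the symbols BNIP3, BNIP3L, FUNDC1, FUNDC2, PINK1, PHB2, BCL2L13, FKBP8, USP30 and MUL1, which are 10 of the 28278 gene symbols measured. RNA was measured by polyA-selected bulk RNA-seq in 2 cancer cell lines labelled OVCAR3 (ovarian) and CCL218 (colorectal). In each line, HCQ-evolved cells had passed through 15 pulses of hydroxychloroquine (HCQ, a lysosomal inhibitor that blocks late autophagy), each of 48 h, and had then grown for 7 days without the drug. Control cells of the same line were passaged without HCQ. The labels give passage 15 for HCQ-evolved and passage 19 for control cells, so passage number and HCQ exposure cannot be told apart.

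Each of the 4 groups held 3 libraries, named L, M and R for the left, middle and right of a plate, and each library came from cells pooled over that part of a 96-well plate. The 3 pools of a group shared a plate, so p-values measure only the spread between pools of that plate. A pool averages wells that were passaged separately, and differences between wells are not visible in it.

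Mitophagy is the removal of mitochondria by autophagy, and cells start it by 2 routes. In the first, receptor proteins in the outer mitochondrial membrane (BNIP3, BNIP3L also called NIX, FUNDC1, BCL2L13 and FKBP8) bind LC3 or GABARAP on the forming autophagosome directly. In the second, the kinase PINK1 builds up on mitochondria that have lost their membrane potential, phosphorylates ubiquitin and starts the tagging of outer membrane proteins with ubiquitin, which the deubiquitinase USP30 undoes. BNIP3 and BNIP3L are textbook targets of the hypoxia-inducible factors (HIF).

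The line labels were checked against marker genes before any comparison. Under the OVCAR3 label, intestinal markers were high, with means of 242 CPM for VIL1 and 730 CPM for LGALS4 in control pools (CPM, the read count of a gene relative to the TMM-scaled total of its library). In the HCQ-evolved OVCAR3 pools these means were 110 CPM and 360 CPM. Among ovarian markers, SOX17 was at 0 CPM in every group, EMX2, ESR1 and CDH6 were below 0.035 CPM, and PAX8 lay between 8.32 and 12 CPM under both labels. MUC16 went with the label, at means of 22.5 and 30.9 CPM in control and HCQ-evolved OVCAR3 against 8.66 and 4.78 CPM in CCL218, and FOLR1 was at 4.93 and 2.24 CPM against 2.56 and 1.96 CPM. MSLN went the other way, at 14.3 and 6.87 CPM in OVCAR3 against 63.7 and 108 CPM in CCL218, and made up much of the sum in CCL218. Summed ovarian markers ranged from 66.8 to 107 CPM in OVCAR3 pools and from 131 to 189 CPM in CCL218 pools. Summed intestinal markers ranged from 1040 to 1260 CPM in control OVCAR3, 287 to 733 CPM in HCQ-evolved OVCAR3 and 1280 to 1730 CPM in CCL218. The ovarian markers were thus mixed, and several defining ones were at or near 0 under the ovarian label. Over all genes, the log2 difference of control CCL218 from control OVCAR3 had an SD of 0.548. For HCQ-evolved against control the SD was 0.601 in OVCAR3 and 0.535 in CCL218. The labels thus differed about as much as the conditions did. The line names below are labels only, and results in both lines may not come from 2 distinct backgrounds. Whether the fall of the summed intestinal markers in OVCAR3 bears on the mitophagy genes was not tested. Of 8 stromal markers the sum stayed between 0.637 and 3.35 CPM, and of 6 leukocyte markers PTPRC was below 0.04 CPM while LYZ, which epithelial cells also express, was between 1780 and 2400 CPM.

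Libraries held 31147822 to 59965861 counts. Pools also differed in how their counts leaned towards short or long transcripts. The Spearman rho, across genes, of a pool's deviation from its line's mean with transcript length ranged from -0.449 to 0.512, and this trend touches several values given below.

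The promoter of BNIP3 is shown first, with the hypoxia response core marked, because BNIP3 and its paralog BNIP3L are textbook HIF targets. No BNIP3L sequence was examined. Promoter windows from RefSeq (GRCh38.p14) were matched for 7 of the 10 genes, and BNIP3L, PINK1 and FKBP8 had no entry. The 250 bases before the RefSeq start of BNIP3 lie at chr10:131981924-131982173 on the minus strand. The gene coordinates given below come from GENCODE, whose BNIP3 start (131981967) lies within this window. Capitals mark each match to ACGTG or GCGTG on either strand, which are the core letters of the hypoxia response element.
BNIP3: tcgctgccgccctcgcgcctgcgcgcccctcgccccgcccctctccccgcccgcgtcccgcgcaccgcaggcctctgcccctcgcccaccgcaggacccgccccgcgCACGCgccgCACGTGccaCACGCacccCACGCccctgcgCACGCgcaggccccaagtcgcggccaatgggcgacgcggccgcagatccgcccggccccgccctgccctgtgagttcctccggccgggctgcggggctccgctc
The window held 6 matches, 2 to ACGTG and 4 to GCGTG. The 2 ACGTG matches overlapped, since they read the same palindrome on opposite strands, and all 6 lay between 143 and 100 bases before the RefSeq start. Of all 35116 promoter windows of this length, 43.2% held at least 1 match and 0.65% held at least 6. Both motifs contain CG, and this window was 81.6% GC with 41 CG pairs, as many as only 1.7% of promoter windows hold, so its number of matches cannot be told apart from its composition. A window of USP30, FUNDC2 and BCL2L13 each held 1 match, and those of FUNDC1, PHB2 and MUL1 held none. A match describes letters only and is no evidence of binding.

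Whether HCQ-evolved cells differed from controls in these genes was asked in each line. BNIP3L, the outer membrane receptor that clears mitochondria during red cell maturation, was the 1 gene that rose in OVCAR3 and the 1 that rose in CCL218. Its mean was 1.87-fold the control mean in OVCAR3 and 2.42-fold in CCL218. Of the 9 genes that passed the filter on low counts in OVCAR3, 1 was higher, where 0.647% of all 12204 genes tested were higher. Of the 10 tested in CCL218, 1 was higher, where 3.82% of 12241 genes were. None was called lower in either line, where 1.21% of all genes were in OVCAR3 and 2.64% in CCL218. The log2 fold change was above 0 for 4 genes in OVCAR3 and for 4 in CCL218, where 51.6% and 48.3% of all genes were, and with no test it describes only signs. The median log2 fold change of the tested genes was -0.02 in OVCAR3 and -0.04 in CCL218, beside 0.02 and -0.02 over all genes tested. These are bulk libraries, in which fewer cells of a kind and less RNA per cell cannot be told apart.

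**Figure D1:**
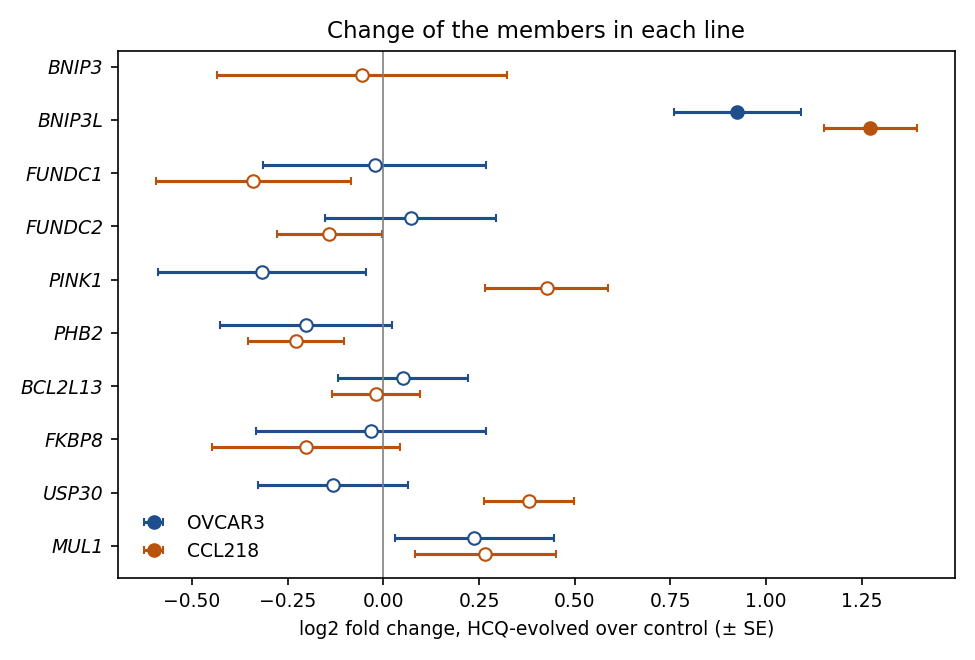
Log2 fold change (HCQ-evolved over control, x axis) of each gene (y axis) with its standard error, in OVCAR3 (blue) and CCL218 (orange). Filled points passed an adjusted p of 0.05 in edgeR's quasi-likelihood test, which BNIP3L did in both lines at 0.92 and 1.27, while the other genes lay between -0.34 and 0.43 and BNIP3 was not tested in OVCAR3.

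BNIP3L (chromosome 8, 26383054 to 26505636, plus strand, hg38) was at 113.8, 118.1 and 126.1 CPM in the control OVCAR3 pools and at 202.7, 226.1 and 242.4 CPM in the HCQ-evolved ones. In CCL218 the control pools were at 94.9, 105.0 and 93.6 CPM and the HCQ-evolved pools at 233.4, 256.9 and 220.4 CPM. Every HCQ-evolved pool was above every control pool, in both lines, and the gap between the groups was wider than the range within either. Here and below ± beside a log2 fold change is its standard error. BNIP3L changed by 0.92 ± 0.166 on the log2 scale in OVCAR3 (adjusted p = 0.0406, edgeR quasi-likelihood test with Benjamini-Hochberg adjustment over all genes). In CCL218 it was 1.27 ± 0.121 (adjusted p = 0.00275, the same test).

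The OVCAR3 call depended on 5 of the 6 pools. It was kept in 1 of the 6 fits that left out a single library, the one without the HCQ-evolved pool R. The adjusted p (edgeR) ranged from 0.0289 to 0.184 while the log2 fold change stayed between 0.85 and 0.99. Most of these fits called few genes at all. Of 12018 to 12122 genes tested, 0, 3 and 1 were higher without the control pools L, M and R. There were 9, 3 and 233 without the HCQ-evolved pools L, M and R, beside 79 of 12204 with every pool. In CCL218 the call was kept in 6 of 6 such fits, with a log2 fold change of 1.22 to 1.33. By size of fold, BNIP3L ranked 431 of 12204 genes in OVCAR3 and 182 of 12241 in CCL218. With the trend of length and GC content removed, the log2 fold changes were 0.75 and 1.16, and both passed the test.

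BNIP3, the paralog of BNIP3L (chromosome 10, 131967684 to 131981967, minus strand), was close to silent. Control OVCAR3 pools held 51, 29 and 38 counts and HCQ-evolved pools 46, 37 and 50 counts. Control CCL218 pools held 53, 49 and 42 counts and HCQ-evolved pools 75, 57 and 35 counts. The highest pool was at 1.54 CPM and the lowest at 0.586 CPM, both in HCQ-evolved CCL218, and the groups overlapped in both lines. BNIP3 failed the filter in OVCAR3, and without a filter its log2 fold change there was -0.24 ± 0.415 (adjusted p = 0.811, edgeR). In CCL218 it was -0.06 ± 0.378 (adjusted p = 0.937, edgeR). At this depth a moderate change of BNIP3 in either direction was not detectable.

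**Figure D2:**
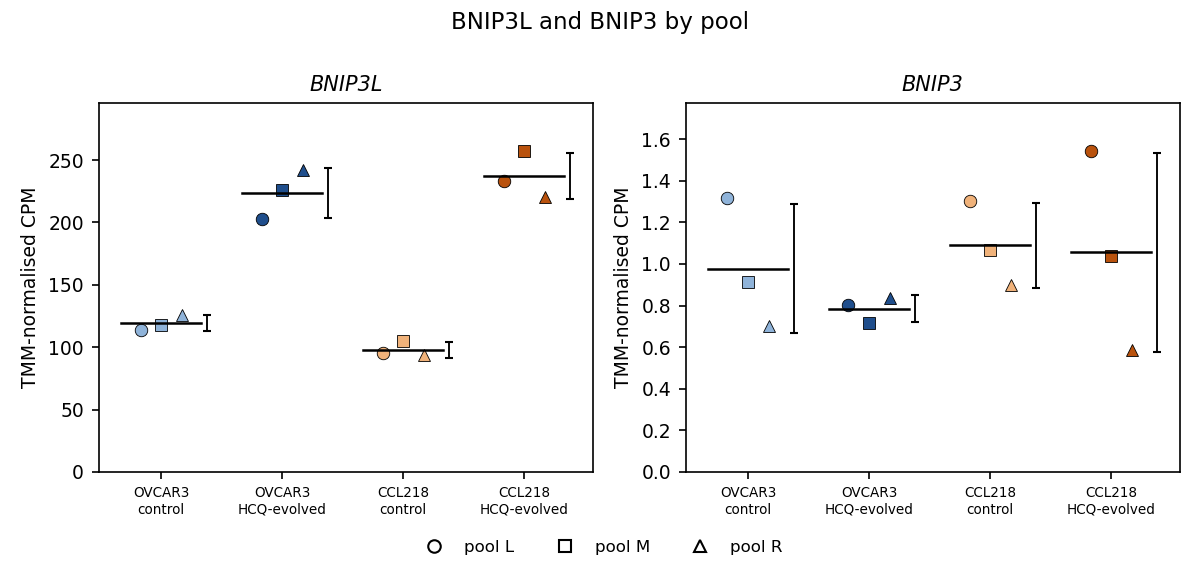
TMM-normalised CPM (y axis, from 0) of BNIP3L and BNIP3 in the 3 pools of each group (x axis), with the mean as a line and the SD as a bar. HCQ-evolved pools of BNIP3L lie at 202.7 to 256.9 CPM, above all control pools, and BNIP3 stays at 0.586 to 1.54 CPM with overlapping groups.

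The balance of the paralogs was read within each library, where no scaling enters. BNIP3 counts were 1.17, 0.785 and 0.565% of BNIP3L counts in the control OVCAR3 pools and 0.401, 0.320 and 0.349% in the HCQ-evolved ones. In CCL218 they were 1.39, 1.03 and 0.970% in controls and 0.665, 0.408 and 0.270% after evolution. The groups did not overlap in either line. The log2 ratio of BNIP3 to BNIP3L differed by -1.18 in OVCAR3 and -1.41 in CCL218 (HCQ-evolved minus control), each with p = 0.1 in a two-sided exact permutation test, the smallest that 3 pools against 3 allow. These shares repeat the rise of BNIP3L beside a steady low count of BNIP3.

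PINK1 (chromosome 1, 20633458 to 20651511, plus strand), the kinase that senses damaged mitochondria, did not pass the test in either line. Its control CCL218 pools were at 8.52, 11.2 and 11.96 CPM and its HCQ-evolved pools at 13.8, 15.1 and 13.8 CPM, so the groups did not overlap there. In OVCAR3 the control pools were at 8.78, 13.6 and 12.7 CPM and the HCQ-evolved pools at 9.63, 7.11 and 11.1 CPM, and the groups overlapped. The log2 fold change was 0.43 ± 0.162 in CCL218 (adjusted p = 0.157, edgeR) and -0.32 ± 0.271 in OVCAR3 (adjusted p = 0.619, edgeR). The antisense gene PINK1-AS shares 1907 exon bases with PINK1 and was at 1.26 to 3.2 CPM. The strand setting of the counting is not given in the sources used here, so reads of the pair could be mixed.

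USP30 (chromosome 12, 109023089 to 109088023, plus strand), the deubiquitinase of the outer membrane that opposes the PINK1 route, did not pass the test in either line. Its control CCL218 pools were at 18.2, 19.03 and 17.7 CPM and its HCQ-evolved pools at 22.6, 24.4 and 24.7 CPM. All 3 HCQ-evolved pools were thus above the controls, and the log2 fold change was 0.38 ± 0.118 (adjusted p = 0.103, edgeR). In OVCAR3 the control pools were at 13.2, 15.2 and 14.4 CPM and the HCQ-evolved pools at 12.4, 15.1 and 11.1 CPM, which overlapped (log2 fold change -0.13 ± 0.195, adjusted p = 0.788, edgeR). USP30 passed the threshold in CCL218 with DESeq2's Wald test (adjusted p = 0.0116) and without the control pool L (adjusted p = 0.029, edgeR). The log2 ratio of PINK1 to USP30 within libraries, a pair chosen after its values were seen, differed by 0.06 in CCL218 (p = 0.8) and by -0.18 in OVCAR3 (p = 0.7), in two-sided exact permutation tests.

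MUL1, a ubiquitin ligase of the outer membrane, lies on chromosome 1 (20499448 to 20508151, minus strand), 125306 bases from PINK1. Its control OVCAR3 pools were at 14.8, 20.8 and 21.2 CPM and its HCQ-evolved pools at 22.2, 21.99 and 22.2 CPM. The HCQ-evolved pools were above all controls by less than the spread of the controls, and the log2 fold change was 0.24 ± 0.207 (adjusted p = 0.626, edgeR). In CCL218 the control pools were at 16.1, 22.9 and 25.2 CPM and the HCQ-evolved pools at 27.4, 25.2 and 24.9 CPM, which overlapped (log2 fold change 0.27, adjusted p = 0.392, edgeR). In both lines the control pool L was the lowest, as it was for PINK1. With the length and GC trend removed, the OVCAR3 groups of MUL1 overlapped, with controls up to 4.393 and HCQ-evolved pools from 4.305 log2 CPM. The CCL218 groups were then apart, with controls up to 4.784 and HCQ-evolved pools from 4.826 log2 CPM.

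Pools were counted as normalised, with no trend removed. Over the group, 2 genes (BNIP3L and MUL1) had all HCQ-evolved pools above all control pools in OVCAR3, where 13% of all genes tested did. In CCL218 there were 3 (BNIP3L, PINK1 and USP30), where 18.6% of all genes tested did. None had all pools below the controls, where 12.7% of all genes did in OVCAR3 and 17.3% in CCL218. An unadjusted p below 0.05 was reached by 1 gene (BNIP3L) in OVCAR3, where 16.2% of all genes reached it, and by 3 (BNIP3L, PINK1 and USP30) in CCL218, where 25.2% did.

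PHB2 (chromosome 12, 6965327 to 6970780, minus strand) is the prohibitin of the inner membrane that binds LC3 once the outer membrane has ruptured. It was at 323 ± 41.2 CPM (SD, n = 3) in control and 278 ± 69.4 CPM in HCQ-evolved OVCAR3. In CCL218 it was at 275 ± 23.8 CPM and 235 ± 17.9 CPM. The log2 fold changes of -0.20 and -0.23 (standard errors 0.225 and 0.125) did not pass the test, and the pools overlapped in both lines.

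FUNDC1 (chromosome X, 44523639 to 44542859, minus strand) is a receptor known for mitophagy under low oxygen, and FUNDC2 (chromosome X, 155025980 to 155060304, plus strand) is its paralog. FUNDC1 was at 24.2 ± 6.41 CPM in control and 23.6 ± 7.08 CPM in HCQ-evolved OVCAR3, and at 22.7 ± 8.56 and 18.0 ± 0.858 CPM in CCL218. The wide spread of the control CCL218 pools came from pool L at 32.4 CPM, beside 16.5 and 19.1 CPM in the others. The log2 fold change in CCL218 was -0.34 with that pool (adjusted p = 0.432, edgeR) and 0.005 without it. FUNDC2 was at 97.7 ± 16.9 and 102 ± 21.6 CPM in OVCAR3 and at 84.6 ± 7.56 and 76.9 ± 8.21 CPM in CCL218, with log2 fold changes of 0.07 and -0.14. FUNDC1 counts were between 20.9 and 35.4% of FUNDC2 counts in the 12 libraries, and the log2 ratio differed by -0.09 in OVCAR3 (p = 0.6) and -0.13 in CCL218 (p = 0.9, two-sided exact permutation tests).

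BCL2L13 (chromosome 22, 17628855 to 17730855, plus strand), regarded as the mammalian counterpart of the yeast receptor Atg32, had a nearly constant level. Its means were 61.4 ± 3.23 and 62.8 ± 4.60 CPM in OVCAR3 and 62.1 ± 3.68 and 61.4 ± 1.55 CPM in CCL218. The log2 fold changes were 0.05 (standard error 0.17) and -0.02 (standard error 0.114). All 12 pools lay between 57.7 and 67.1 CPM.

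FKBP8 (chromosome 19, 18531751 to 18544077, minus strand), an outer membrane immunophilin that binds LC3A, varied widely between pools. Control OVCAR3 pools were at 523.3, 275.6 and 399.7 CPM and HCQ-evolved pools at 427.4, 475.0 and 255.1 CPM. In CCL218 the control pools were at 395.3, 213.0 and 240.3 CPM and the HCQ-evolved pools at 283.3, 235.1 and 221.6 CPM. The groups overlapped in both lines, and the log2 fold changes were -0.03 (standard error 0.301) and -0.20 (standard error 0.246).

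**Figure D3:**
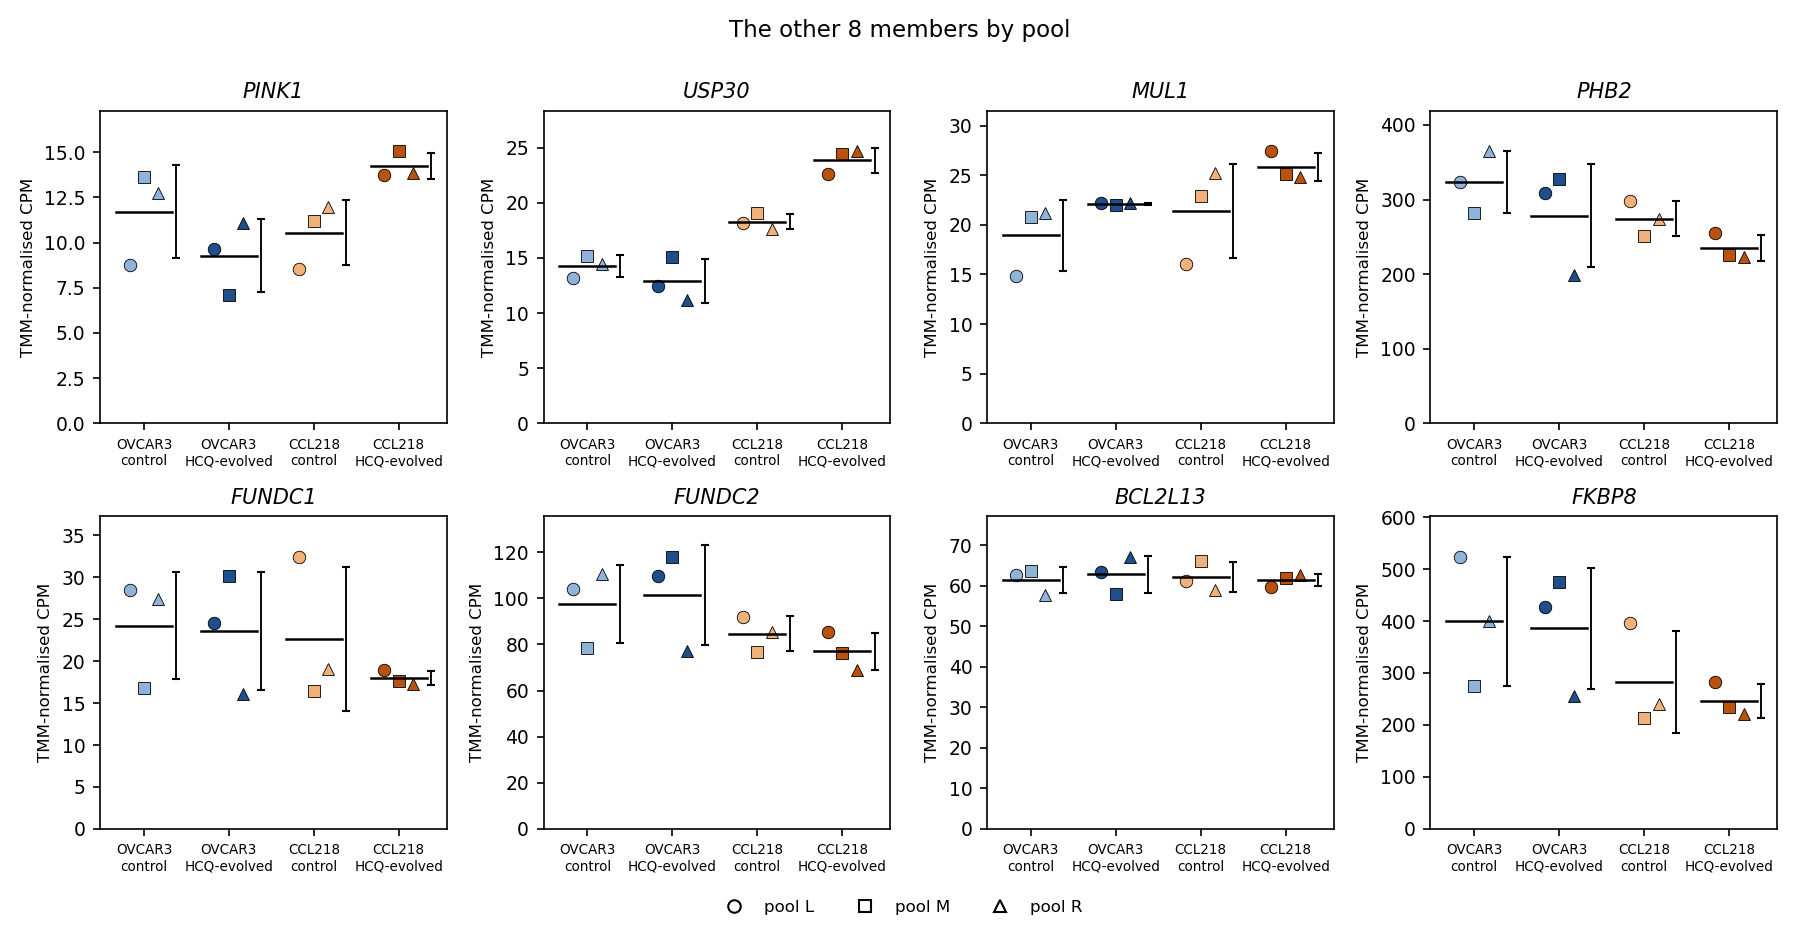
TMM-normalised CPM (y axes, from 0) of the other 8 genes in the 3 pools of each group (x axes), with means as lines and SDs as bars. The CCL218 groups are apart for PINK1 and USP30 and the OVCAR3 groups for MUL1, while BCL2L13 stays between 57.7 and 67.1 CPM in all 12 pools.

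The spread of FKBP8 and FUNDC1 between pools went with the length and GC trend of the libraries. The within-group SD of the log2 CPM of FKBP8 was 0.464 and 0.48 in control and HCQ-evolved OVCAR3, and 0.473 and 0.185 in control and HCQ-evolved CCL218. With the trend removed these became 0.0926, 0.0608, 0.0296 and 0.0273. For FUNDC1, whose longest annotated transcript has 1069 bases, the SD went from 0.421 to 0.142, from 0.461 to 0.0506, from 0.513 to 0.27 and from 0.068 to 0.0394 in the same order of groups. In contrast, the SD of BNIP3L was between 0.0749 and 0.13 before and between 0.0725 and 0.148 after. The SD of FUNDC2 went up in all 4 groups, for example from 0.264 to 0.463 in control OVCAR3. Its longest annotated transcript has 6297 bases and its median transcript 765, and with the median length the SD in that group was 0.274. The SD also went up for MUL1, which has 1 annotated transcript of 2428 bases, from 0.291 to 0.406 in control OVCAR3. For BCL2L13 it went from 0.0771 to 0.12 there. Both genes rose in every group but HCQ-evolved CCL218, where their SD fell. For FUNDC1 the median length left the SD at 0.443 in control OVCAR3, though its longest and median transcripts are of like length, so the reduction depends on which length the trend was built on for all genes.

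**Figure D4:**
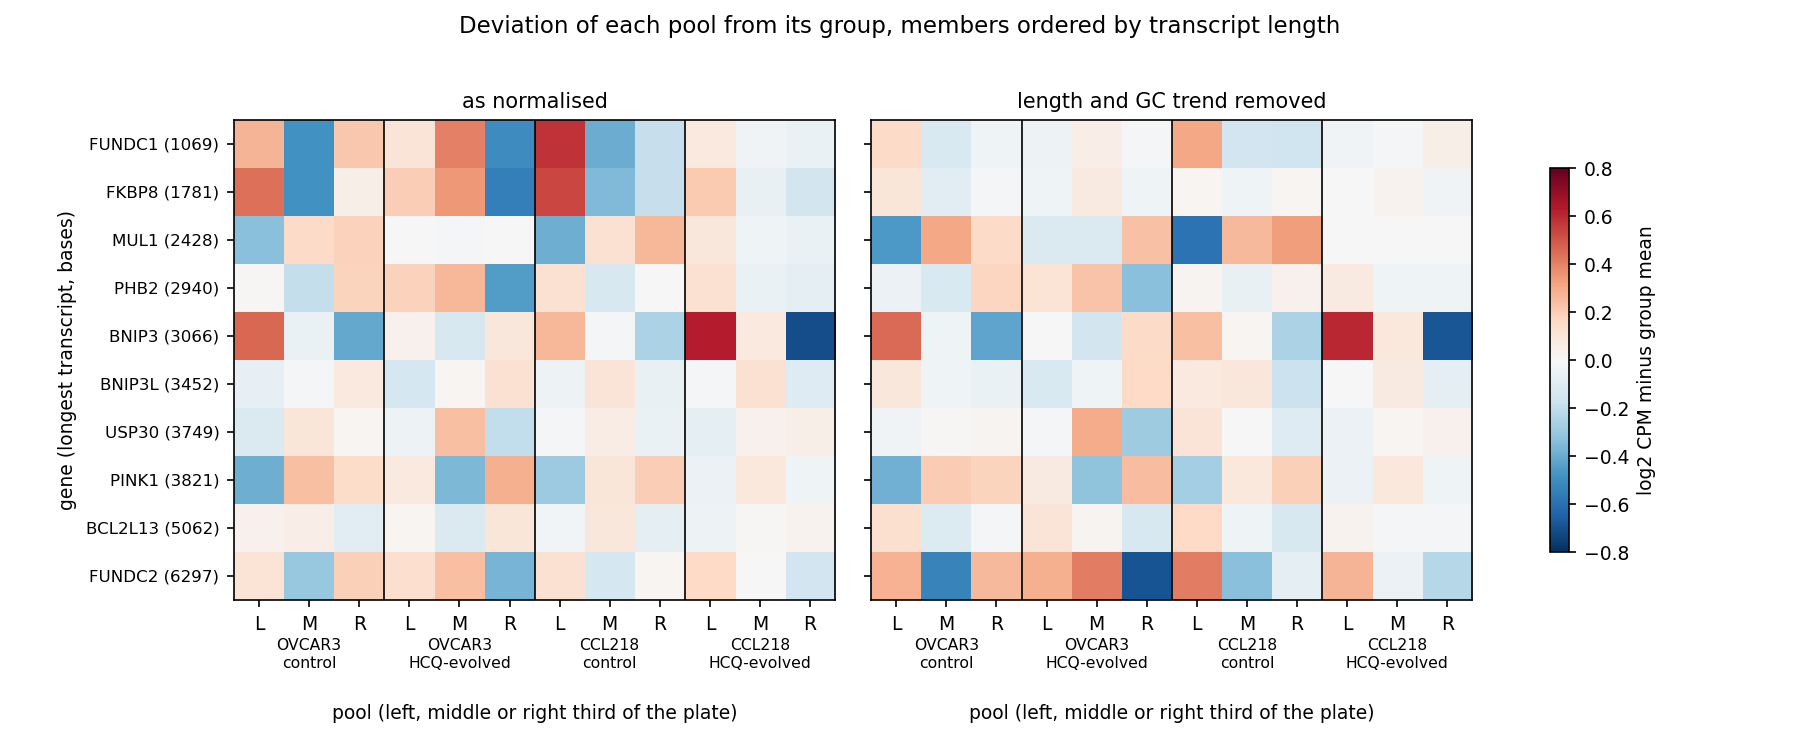
Log2 CPM of each pool minus its group mean (colour), for genes ordered by longest transcript length (y axis) and the 3 pools of each group (x axis), as normalised (left) and with the length and GC trend of each library removed (right). FUNDC1 and FKBP8 at the top lose most of their pool-to-pool deviation on the right. That of FUNDC2 grows, and so does that of MUL1 and BCL2L13 outside HCQ-evolved CCL218.

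Levels were compared between genes per kb of the longest annotated transcript. By group means the order was FKBP8, PHB2, BNIP3L, FUNDC1, FUNDC2, BCL2L13, MUL1, USP30, PINK1 and BNIP3, from highest to lowest, in each of the 4 groups. FKBP8 was between 138 and 224 CPM per kb, PHB2 between 79.9 and 110, and BNIP3 between 0.256 and 0.355. BNIP3L was at 34.6 and 28.3 CPM per kb in control OVCAR3 and CCL218 and at 64.8 and 68.6 CPM per kb in their HCQ-evolved counterparts. Of 36 pairs of neighbours in these orders, 9 had overlapping pools. FUNDC2 and BCL2L13 overlapped in every group, FUNDC1 and FUNDC2 in both OVCAR3 groups, PHB2 and BNIP3L in HCQ-evolved OVCAR3, BNIP3L and FUNDC1 in control CCL218, and USP30 and PINK1 in control OVCAR3. The order depends on the transcript length used. With the median length, BNIP3L was first in HCQ-evolved CCL218, at 259 CPM per kb. FUNDC2 then stood above FUNDC1 in every group, for example at 128 against 22.8 CPM per kb in control OVCAR3.

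Whether the change with HCQ evolution differed between the lines was tested as an interaction. None of the 10 genes passed, where 0.872% of 12613 genes did, and an unadjusted p below 0.05 was reached by PINK1 and USP30, where 9.11% of genes reached it. The log2 fold change of PINK1 was 0.76 higher in CCL218 than in OVCAR3 (standard error 0.305, adjusted p = 0.418, edgeR), and that of USP30 was 0.53 higher (SE 0.2, adjusted p = 0.37, edgeR). For BNIP3L the difference was 0.37 ± 0.173 (adjusted p = 0.572, edgeR). No member passed with DESeq2's Wald test either.

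The lines were also compared in their control pools, which were passaged without HCQ. None of the 10 genes passed, where 3.42% of genes did, and an unadjusted p below 0.05 was reached by BNIP3L and USP30, where 14.5% of genes reached it. BNIP3L was lower in CCL218 by 0.29 on the log2 scale (adjusted p = 0.309, edgeR) and USP30 was higher by 0.36 (adjusted p = 0.26, edgeR). DESeq2's Wald test called no member here.

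The remaining machinery was read from lists of genes. The import and cleavage list holds the TOM and TIM subunits and proteases (PARL, OMA1, PMPCA, PMPCB) that take PINK1 into healthy mitochondria and degrade it. None of its 16 genes passed in either line, with a median log2 fold change of -0.05 in OVCAR3 and -0.13 in CCL218. Over all genes tested, 0.647% were higher and 1.21% lower in OVCAR3, and 3.82% and 2.64% in CCL218. At an unadjusted p below 0.05 the list had 0 in OVCAR3 and 3 lower in CCL218, where 16.2% and 25.2% of all genes reached it. DESeq2's Wald test called 2 of the 3 (TIMM23 and TOMM40). The next list holds 16 genes for outer membrane proteins that are tagged with ubiquitin in the PINK1 route, deubiquitinases and their partners. In OVCAR3 none was higher, where 0.647% of all genes tested were. In CCL218 1 was higher, where 3.82% of all genes tested were. This was HK2, the hexokinase that docks on the outer membrane, at 59.1 ± 11.01 CPM in control and 111 ± 5.98 CPM in HCQ-evolved CCL218 (log2 fold change 0.90, adjusted p = 0.0222, edgeR). In OVCAR3 its log2 fold change was 0.84 (adjusted p = 0.159, edgeR). At an unadjusted p below 0.05 there were 2 higher in OVCAR3 and 3 higher in CCL218, beside 16.2% and 25.2% of all genes in either direction. DESeq2's Wald test called HK2 in OVCAR3, and RHOT1, FBXO7 and HK2 in CCL218.

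Of 12 adaptors and kinases, none passed in OVCAR3 and 3 were higher in CCL218, where 0.647% and 3.82% of all genes tested were higher. At an unadjusted p below 0.05 there was 1 higher in OVCAR3, and in CCL218 there were 4 higher and 1 lower (TBK1, log2 fold change -0.35), where 16.2% and 25.2% of all genes reached it. ULK1, the kinase that starts autophagosome formation, was at 59.5 ± 8.78 CPM in control and 150 ± 12.5 CPM in HCQ-evolved CCL218 (log2 fold change 1.33, adjusted p = 0.00475, edgeR). OPTN and CALCOCO2, the ubiquitin-binding adaptors that serve the PINK1 route, had log2 fold changes of 0.56 (adjusted p = 0.0379, edgeR) and 0.57 (adjusted p = 0.0481, edgeR). In OVCAR3 the value of ULK1 was 0.88 (adjusted p = 0.0732, edgeR), that of OPTN 0.27 and that of CALCOCO2 -0.16, and DESeq2's Wald test called ULK1 there and these 3 genes and NIPSNAP2 in CCL218. ULK1 passed in 6 of 6 fits that left out a CCL218 library, HK2 in 2, and OPTN and CALCOCO2 in 1 each, the one without the control pool L.

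The ATG8 family holds the LC3 and GABARAP proteins that all these receptors bind, and 5 of its 7 genes passed the filter. None of these passed the test in OVCAR3, where 0.647% of all genes tested were higher and 1.21% lower. In CCL218, where 3.82% were higher and 2.64% lower, 1 fell. It was MAP1LC3A, which went from 5.64 ± 3.02 to 1.38 ± 0.101 CPM (log2 fold change -2.03, adjusted p = 0.0267, edgeR). Its call was kept in 2 of 6 fits with a library left out. At an unadjusted p below 0.05, 1 was lower in OVCAR3 and 1 in CCL218, where 16.2% and 25.2% of all genes reached it. DESeq2's Wald test called none in OVCAR3 and MAP1LC3A in CCL218. Of 16 tested regulators of the receptors, among them the ligase FBXL4 and the phosphatase PPTC7 that limit BNIP3 and BNIP3L protein, none passed in either line. Of 13 genes for mitochondrial membrane and matrix proteins, such as citrate synthase (CS), none passed in either line, and the median log2 fold change was 0.09 in OVCAR3 and -0.00055 in CCL218.

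At an unadjusted p below 0.05, OVCAR3 had 1 lower receptor regulator and 1 mitochondrial gene in each direction, and CCL218 had 3 higher and 2 lower regulators and 1 higher mitochondrial gene. Over all genes, 16.2% reached this in OVCAR3 and 25.2% in CCL218, and the 5 of 16 regulators in CCL218 are near that share. DESeq2's Wald test called none of these 2 lists' genes in OVCAR3, and in CCL218 it called ATAD3A, FBXL4 and EPAS1 among the regulators and SDHA among the mitochondrial genes.

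With plate position as a block, further genes of these lists passed in CCL218. In that fit 957 of all 12241 genes tested were higher and 787 lower. FBXL4 (log2 fold change 0.62), FOXO3 (0.55) and EPAS1 (1.01) were higher and BCL2L1 (-0.49) and ATAD3A (-0.49) lower among the receptor regulators. TOMM40 (-0.71) was lower among the import genes, and SDHA (0.56) was higher among the mitochondrial genes, with adjusted p from 0.00826 to 0.0469 in edgeR. Without the control pool L of CCL218 and with no block, 3 import genes were lower and 4 genes of the ubiquitin list were higher. Of the adaptors and kinases 3 were higher and 2 lower, and of the regulators 3 were higher and 2 lower. Over all 12102 genes tested without that pool, 1646 were higher and 1401 lower. TIMM23, RHOT1, FBXO7, TBK1, NIPSNAP2 and the 7 genes listed for the block were named after their values were seen.

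The HIF target list gives the company of BNIP3L and BNIP3 outside mitophagy. Of its 16 genes, 5 were called higher in OVCAR3 and 16 in CCL218, where 0.647% and 3.82% of all genes tested were. None was called lower. The list was chosen with earlier results of these data known, and the study had reported raised hypoxia gene networks in HCQ-resistant cells. These counts are therefore not independent support. The median log2 fold changes were 1.03 and 1.46, and in OVCAR3 1 of the 16 was below 0, at -0.08. The 5 called in OVCAR3 were EGLN3, P4HA2, PFKFB4 and DDIT4, and P4HA1, which was named beyond the rule of 4 after its values were seen. When a library was left out, the OVCAR3 count was 0 without the control pool L or R. It was 1 without the control or HCQ-evolved pool M, 3 without the HCQ-evolved pool L and 8 without the HCQ-evolved pool R. Over all genes, these fits called 0 and 1 higher without the control pools L and R, and 3 without either pool M. They called 9 and 233 higher without the HCQ-evolved pools L and R, so the counts cannot be read apart from these totals. In CCL218 the HIF target count was 16, 12 and 8 without the control pools L, M and R. It was 9, 7 and 8 without the HCQ-evolved pools L, M and R. Over all genes, 1646, 296 and 112 were higher without the control pools in that order. There were 108, 72 and 108 without the HCQ-evolved pools. Under the other settings the HIF target count ranged from 3 to 11 in OVCAR3 and from 15 to 16 in CCL218. In OVCAR3 it was 3 under the replicate block, 9 with the length and GC trend removed and 9 with no filter. It was 10 with DESeq2's Wald test and 11 in the fit of 12 libraries. Over all genes, these settings called 17, 424, 243, 542 and 558 higher in OVCAR3 in the same order. EGLN3, the HIF prolyl hydroxylase, went from 45.8 ± 1.60 to 132 ± 11.4 CPM in OVCAR3 and from 35.5 ± 6.47 to 162 ± 16.7 CPM in CCL218. Its adjusted p was 0.0101 in OVCAR3 and 0.00164 in CCL218 (edgeR). The log2 fold changes of BNIP3L, 0.92 and 1.27, lay near the list's medians, and that of BNIP3 in CCL218, -0.06, lay below those of all 16 listed HIF targets there.

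**Figure D5:**
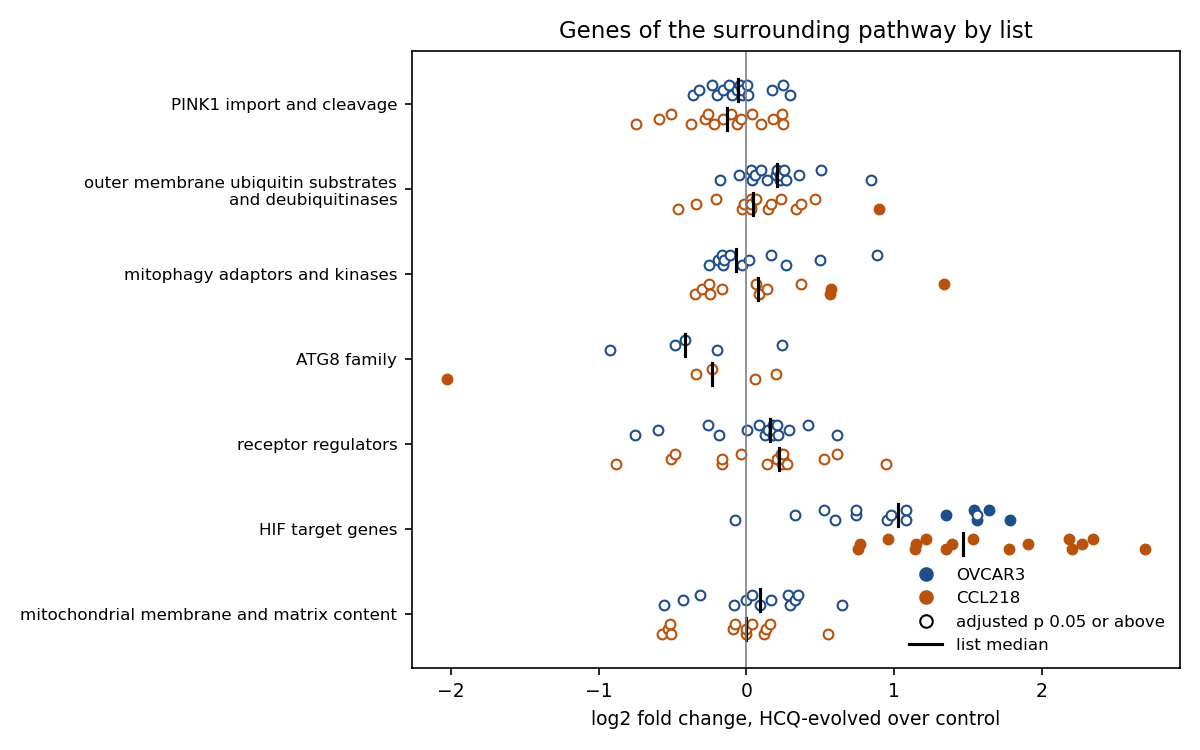
Log2 fold change (x axis) of the tested genes of each list (y axis) in OVCAR3 (blue) and CCL218 (orange), filled where the adjusted p was below 0.05, with list medians as black bars. Most HIF targets lie to the right, with medians of 1.03 and 1.46, and the other medians lie between -0.42 and 0.22.

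The genes with the most alike pattern were found by Pearson r of log2 CPM over the 12 libraries, among genes tested in both lines. The points share group, library and length trend, and no test was made. For BNIP3L, a choice made after its values were seen, these were QSOX1 (0.991), PFKFB4 (0.987) and EGLN3 (0.984). For FUNDC1 they were GEMIN6 (0.986), LAMTOR3 (0.985) and MAGOHB (0.983), and for PINK1 they were SLC33A1 (0.917), KLF10 (0.909) and PPP1R15B (0.908). For BNIP3, whose counts are low, they were weaker, with DNAJB5 at 0.813, PLEKHM2 at 0.78 and C16orf58 at 0.755.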

How the data were processed

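Per the submitters' notes and the study's methods, the authors aligned reads to hg38 with STAR, removed duplicates with RmDup and counted reads per gene with featureCounts. The deposited values are raw counts for 28278 gene symbols in 12 libraries, and versions, annotation and strand setting are not given in the sources used here. Removing duplicates by position can flatten highly expressed genes. The 10 genes and the gene lists around them were chosen with earlier results of these data known. Some genes of these lists are not reported here.

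Each line was fitted alone with edgeR 4.0.16 in R 4.3.3 (TMM, a minimum of 1 CPM in 3 or more libraries, robust quasi-likelihood F test in legacy mode, Benjamini-Hochberg adjustment over all genes tested, threshold 0.05). Differences between lines came from one fit of 12 libraries. DESeq2 1.42.0 and limma 3.58.1 (voom) were alternatives, beside DESeq2 size factors, no filter, a replicate block, removal of the length and GC trend by a spline of 5 degrees of freedom, and leaving out each library. The median length variant of that trend was chosen after seeing the data. Coordinates and transcript lengths came from GENCODE 44, which matched 91.1% of symbols, and promoters from RefSeq. The pipeline was tested on simulated data.

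Control and HCQ-evolved plates share the position labels L, M and R. After group means were removed, same-position pools of CCL218 correlated across genes at 0.506 (L), 0.233 (M) and 0.195 (R), all above 0.1. The fit was therefore repeated with position as a block, and values given without a block come from unpaired fits. Control and HCQ-evolved pools of a position also leaned the same way with transcript length in CCL218. Their rho was -0.449 and -0.211 for L, 0.421 and 0.257 for M, and 0.0289 and 0.416 for R. The correlations were not recomputed with that trend removed, so shared position and shared trend cannot be told apart.

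Genes to name were all 10 members, up to 4 genes passing the test per list and line, and the 3 genes most alike in pattern to BNIP3, FUNDC1 and PINK1. Depth was 31147822 to 59965861 counts per library, and intervals and errors cover these pools only.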

Additional observations from a re-analysis of the deposited data

How the results depend on the processing

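The direction of BNIP3L was kept in every alternative run. In OVCAR3 the number of mitophagy genes called, 1, became 0 with the replicate block and 0 with the block and the length and GC trend removed. It ranged from 0 to 1 when single libraries were left out, with 1 only without the HCQ-evolved pool R. The log2 fold change of BNIP3L was then 0.92 (adjusted p = 0.163, edgeR) with the block and 0.75 (adjusted p = 0.0837, edgeR) with the block and the trend removed. Same-position correlations in OVCAR3 were 0.401 (L), -0.665 (M) and -0.478 (R), and their signs went with the length trend of the libraries. They do not decide how the loss of the OVCAR3 call under the block is to be read. In CCL218 the number called, 1, became 2 with DESeq2's Wald test and ranged from 1 to 2 when single libraries were left out, the second gene being USP30 and the library the control pool L. The block changed no other call of a member. Of 625 alternatives for single genes, 616 kept the side of the threshold, 2 gained it and 7 lost it, the 7 all being BNIP3L in OVCAR3. Of the 616, 51 changed sign, 26 within a line and 25 in the interaction or between control lines, all for values that passed the test in neither fit.

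Over all genes, 227 were called in OVCAR3 and 81 with the block, with 3 to 557 when single libraries were left out and 81 to 1165 under the other settings. In CCL218, 791 were called and 1744 with the block, with 102 to 3047 and 654 to 2172 in the same order. For the interaction, 110 were called, with 38 to 212 and 106 to 463, and between control lines 431, with 181 to 790 and 434 to 925. Depth limits BNIP3, with 29 to 75 counts per library.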
